A study of Ovis aries with 15 samples.

Results

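Kidney transcriptomes of sheep fed aflatoxin B1 together with curcumin (AFB1_CUR) were compared with those of sheep fed aflatoxin B1 alone (AFB1), so that curcumin was the dietary difference between the groups. The comparison used 9 of the 15 libraries that the labels give as kidney, AFB1_CUR replicates 1 to 5 and AFB1 replicates 2 to 5, each from a different animal. All were male Dorper × Small-tailed Han crossbred sheep aged 4 months, kept 2 to a pen, and the same concentration of AFB1 was mixed into the ration of both groups for 21 days. Sheep on the plain ration (CON, 5 libraries) are given beside the comparison as a level only and entered no main test, although 1 alternative fit took them in. Which animals shared a pen is not in the labels, so animals were treated as separate.

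AFB1 is a mould toxin that liver and kidney oxidize to a reactive epoxide, which binds DNA and protein. Glutathione S-transferases of the alpha class detoxify that epoxide, and the transcription factor NRF2, held down by KEAP1, drives many enzymes of glutathione and redox metabolism. Curcumin is a plant polyphenol studied as an antioxidant and as an inhibitor of inflammatory signalling. The question put to the kidney libraries was therefore whether genes of redox defence, endoplasmic reticulum stress, cell death and inflammation stood at other levels once curcumin was added.

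AFB1 replicate 1 took no part in the filter, the scaling or the fit. In the library so labelled ALB, the gene of serum albumin, had a count of 3190765 against 0 to 2846 in the other 14 libraries, and UMOD, the thick ascending limb gene uromodulin, had 17 against 19531 to 304377. The markers of that library thus go against its kidney label, with high albumin and almost no uromodulin. The remaining 9 libraries held 53609682 to 65706914 counts each. Their kidney identity was clear from tubule genes. The water channel gene AQP2 of the collecting duct had 1184 to 2223 CPM (read counts scaled to a common library size with TMM, the trimmed mean of M values) in AFB1_CUR and 1454 to 2219 in AFB1, and CUBN, the proximal tubule receptor cubilin, had 253 to 1327 and 396 to 1723.

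A pair of libraries, 1 in each group, carried many more leukocyte transcripts than the rest. Summed over 6 tested genes of B and plasma cells, AFB1_CUR replicates 1 to 5 had 54.2, 1194, 42.9, 111 and 52.9 CPM, and AFB1 replicates 2 to 5 had 866, 40.7, 151 and 49.0 CPM. AFB1_CUR replicate 2 and AFB1 replicate 2 thus stood far above the other libraries, while the CON libraries had 17.2 to 65.8 CPM. The same pair was highest in the sum over 16 tested genes of T and NK cells, with 148 to 477 CPM in AFB1_CUR and 112 to 380.4 CPM in AFB1. It was also highest in the sum over 13 genes of macrophages and neutrophils, with 300.3 to 1092 and 232 to 850.0 CPM. Of the 16 T and NK genes, 13 were highest of the 9 libraries in AFB1_CUR replicate 2. In a whole-tissue library, more cells of a type and more RNA per cell cannot be told apart. Since the pair is split between the groups, the edgeR fit and the list counts were also computed without both libraries.

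**Figure D1:**
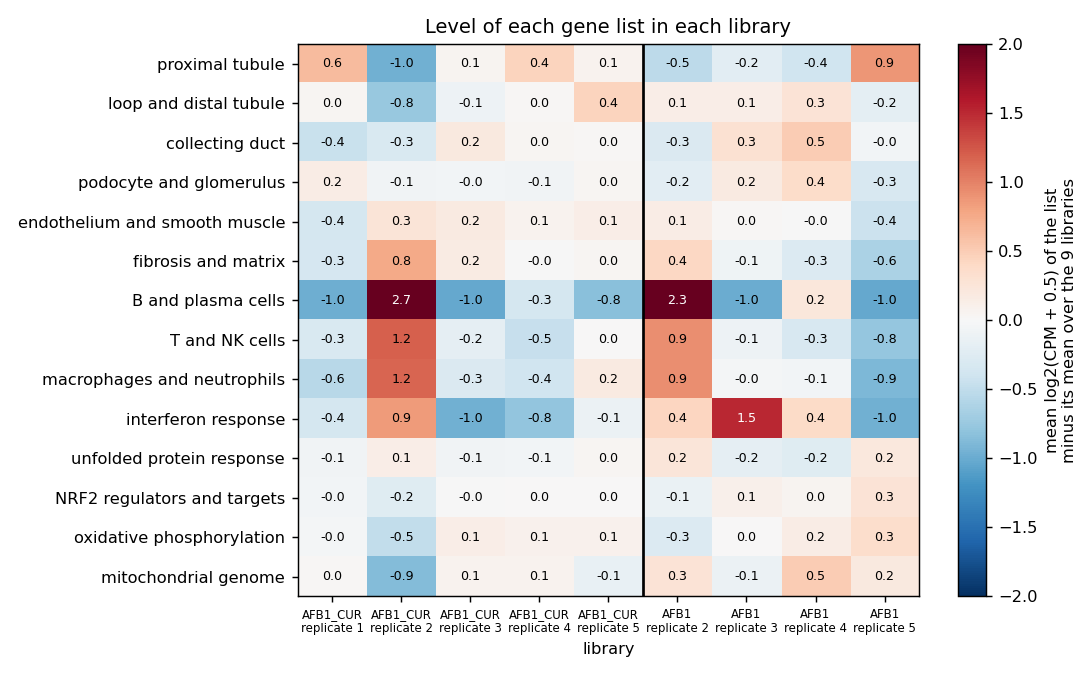
Each square is the mean log2(CPM + 0.5) of a gene list (rows) in 1 of the 9 libraries (columns) minus the mean of that list over the 9, and the black line separates AFB1_CUR from AFB1. The B and plasma cell row is highest in AFB1_CUR replicate 2 and AFB1 replicate 2, and the interferon row is highest in AFB1 replicate 3.

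Of 13027 genes with at least 1 FPKM in at least 4 of the 9 libraries, 51 were called higher in AFB1_CUR and 64 were called lower. A gene was called at an unadjusted p under 0.05 with more than a 1.5-fold difference, the screening conditions of the study. The 115 called genes were 0.883% of the genes tested, 0.391% in the higher direction and 0.491% in the lower direction. After Benjamini-Hochberg adjustment over all of them, 0 genes passed in edgeR, whose smallest adjusted p was 1.0. At an unadjusted p under 0.05 there were 261 genes, 2.00% of those tested, fewer than evenly spread p-values would place there. DESeq2 on the same counts called 66 higher and 81 lower, and 4 genes passed its adjustment, LOC121817434 and GRP (adjusted p = 0.000446 each), LOC114115573 (adjusted p = 0.00324) and CRYBG3 (adjusted p = 0.0345). With limma, log2(FPKM + 1) gave 36 higher and 47 lower and log2(FPKM + 0.1) 71 higher and 52 lower, so the direction that held more calls depended on the pseudocount.

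The spread between animals set what could be seen. The median standard error (SE) of a log2 fold change was 0.19, with quartiles of 0.14 and 0.28, and for 7095 genes (54.5%) the whole 95% interval lay within a 1.5-fold difference in either direction. For these genes a larger change than 1.5-fold lay outside the interval, and for the others it lay inside. For 75 genes, 0.576% of those tested, the libraries of the groups did not overlap, and 16 of the called genes were among them. Among so many genes some groups separate by chance, and how many was not tested. A lack of overlap in a gene picked from all of them therefore does not by itself mark a response to curcumin. Without the leukocyte-rich pair, 130 genes were called higher and 121 lower out of 12659, together 1.98%, and 29 of the higher and 46 of the lower genes were shared with the calls from 9 libraries. Of the 115 called genes, 107 were tested in that fit and all 107 kept their direction. Fits that leave libraries out reuse most of the same animals for genes already picked as called. A direction or call kept in them is therefore not independent support. A set of 8 higher and 21 lower genes was called in each fit that left out 1 of the 9 libraries as well as without the pair. The called genes were of low abundance, with a median of 11.6 CPM against 30.6 CPM for all genes tested.

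**Figure D2:**
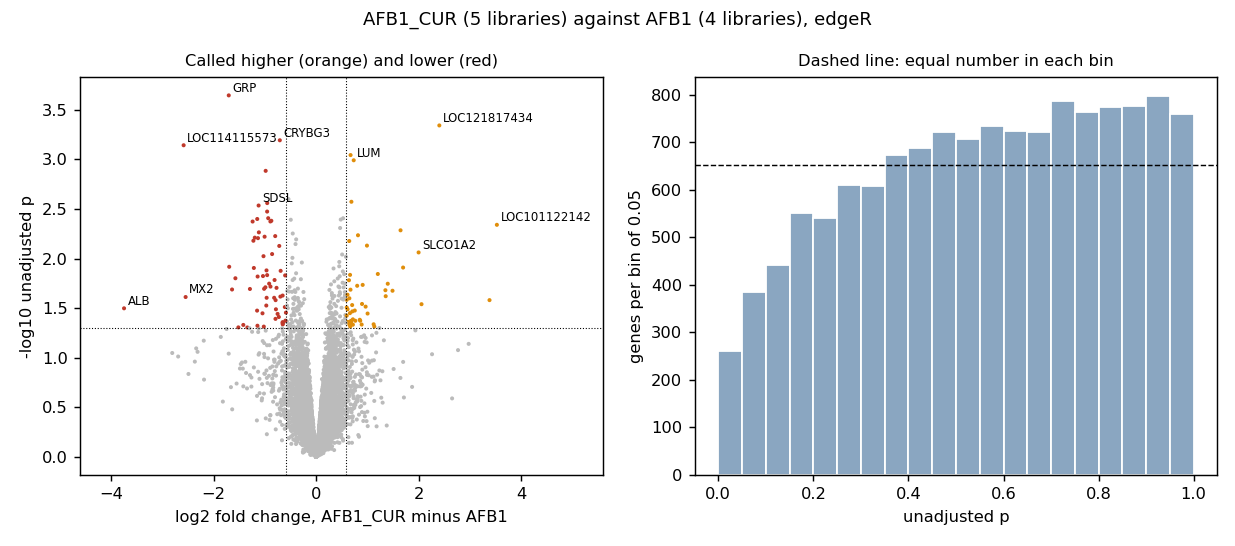
Left, each point is 1 of 13027 genes, with the log2 fold change of AFB1_CUR minus AFB1 against −log10 of the unadjusted edgeR p, and dotted lines at p of 0.05 and a 1.5-fold difference; 51 points are called higher and 64 lower. Right, the number of genes in each p bin of 0.05, with 261 genes in the lowest bin and a dashed line at an equal number of genes per bin.

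Among the higher genes, LOC121817434 had the strongest evidence. It is described as glutathione S-transferase A1-like, an alpha-class enzyme that joins glutathione to electrophiles, and lies on chromosome 20 from 24766932 to 24790562. Its CPM values were 23.1, 10.6, 11.2, 41.2 and 16.0 in AFB1_CUR replicates 1 to 5 and 3.10, 3.89, 6.03 and 2.40 in AFB1 replicates 2 to 5. Every AFB1_CUR library was above every AFB1 library, whereas the CON libraries ran from 3.37 to 26.8 CPM and covered most of both ranges. The log2 fold change was 2.40 (SE 0.47, 95% interval 1.36 to 3.44), and it was 2.48 without the leukocyte-rich pair.

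A second gene described as glutathione S-transferase A1, LOC114108595 on chromosome 7 from 98437319 to 98438143, was also called higher, with a log2 fold change of 2.06 (SE 0.80, 95% interval 0.26 to 3.85). It had 63.1, 8.15, 65.1, 140.2 and 77.8 CPM in AFB1_CUR and 4.06, 8.02, 40.2 and 15.9 CPM in AFB1. AFB1_CUR replicate 2 fell among the AFB1 libraries and AFB1 replicate 4 came near the other AFB1_CUR libraries, so the groups overlapped, and the gene was called in 5 of the 9 fits that left out a library. The 4 other alpha-class genes on chromosome 20 were not called. GSTA1 itself had 187, 127, 187, 259 and 160.1 CPM in AFB1_CUR and 94.2, 175, 110.4 and 404 in AFB1, a log2 fold change of -0.09 (SE 0.41, 95% interval -1.0 to 0.82). GSTA1-1, described as glutathione S-transferase A2, had -0.57, LOC101106720 -0.07 and LOC101107232, described as glutathione S-transferase A4, -0.45. Related genes of 1 family may share reads, which was not tested, so the value of any 1 of them is uncertain. Summed over the 6, the alpha class reached 415 to 1179 CPM in AFB1_CUR and 640.0 to 1439 CPM in AFB1, overlapping ranges in which the called pair was a minor part. Over 25 genes whose description names a glutathione S-transferase, a family collected after values were seen, the same 2 were called higher, against 0.391% of all genes, and the median log2 fold change was -0.04.

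Carriers of the tubule wall were called in both directions. SLCO1A2 encodes an organic anion transporting polypeptide that takes up bile acids, steroid conjugates and drugs. It had 15.1, 11.7, 10.2, 16.4 and 43.2 CPM in AFB1_CUR against 9.79, 1.87, 2.05 and 5.64 in AFB1, without overlap, and a log2 fold change of 2.00 (SE 0.61, 95% interval 0.63 to 3.37). CON values ran from 1.9 to 54.6 CPM, wider than either group. SLC5A10, a sodium-coupled sugar carrier of the proximal tubule, had 53.4, 21.7, 28.4, 78.1 and 78.7 CPM against 35.4, 11.4, 10.5 and 24.4, a log2 fold change of 1.35 (SE 0.49). AFB1_CUR replicates 2 and 3 lay among the AFB1 values, and the other 3 AFB1_CUR libraries lay above them. SLC22A11, an organic anion and urate carrier, was higher by 0.97 (SE 0.38) and was no longer called without the leukocyte-rich pair.

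In the lower direction, SLC38A3, a glutamine carrier of the basolateral membrane, had 39.6, 29.6, 27.8, 29.3 and 24.2 CPM against 34.3, 54.5, 36.8 and 139.9 in AFB1. AFB1 replicate 5 was by far the highest, AFB1 replicate 3 was also above all AFB1_CUR libraries, and the difference was -1.14 (SE 0.39). SLC51B, a subunit of the bile acid and steroid exporter, was lower by -0.96 (SE 0.32), and SLC4A11, a membrane transporter of the bicarbonate carrier family, by -1.02 (SE 0.45) with 24.5, 5.96, 6.74 and 5.71 CPM in AFB1, so that AFB1 replicate 2 alone stood above AFB1_CUR and the call was lost without the leukocyte-rich pair. Over all 249 tested genes with a solute carrier symbol, 3 were called higher and 3 lower, against 0.883% called in both directions over all genes, and the median log2 fold change was 0.00. Of 243 carriers tested without the leukocyte-rich pair, 8 were called higher and 3 lower, against 1.98% over all genes. Of the 9 fits that left out a library, SLC38A3 and SLC51B were called in 8, SLC5A10 in 7, SLC22A11 in 6 and SLC4A11 in 3. These carriers were picked out after their values were seen, apart from SLCO1A2.

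GRP was the called gene with the smallest p. It encodes gastrin-releasing peptide, a neuropeptide that also stimulates epithelial growth, and lies on chromosome 23 from 58543313 to 58556389. AFB1_CUR replicates 1 to 5 had 9.12, 15.5, 12.8, 25.3 and 15.0 CPM and AFB1 replicates 2 to 5 had 30.5, 65.0, 59.3 and 47.9 CPM. The highest AFB1_CUR library stayed below the lowest AFB1 library, and the CON libraries, at 25.4, 32.5, 23.4, 25 and 16.2 CPM, all lay between the group means. For GRP the difference was -1.70 (SE 0.30, 95% interval -2.38 to -1.03) on the log2 scale, and -1.88 without the leukocyte-rich pair. GRP was called in every fit that left out a single library.

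CRYBG3, described as very large A-kinase anchor protein, a scaffold for protein kinase A, had narrow groups. Its CPM was 23.2, 26.1, 27.3, 26.4 and 19.4 in AFB1_CUR and 49.4, 34.7, 38.4 and 37.6 in AFB1, without overlap, and 30.8 ± 10.4 in CON (SD, 5 libraries). This was a log2 difference of -0.71 (SE 0.14, 95% interval -1.03 to -0.39). LOC105608910 is described as GRAM domain-containing protein 2B but typed in the files as a long non-coding RNA. It had 4.84, 9.11, 7.11, 7.24 and 7.71 CPM against 16.0, 10.9, 18.1 and 12, also without overlap, at -0.98 (SE 0.22). Low-abundance genes behaved alike: ZCCHC12, a zinc finger protein, had 0.877 to 2.44 CPM against 2.76 to 5.18, CHRNA5, a nicotinic receptor subunit, 1.22 to 3.49 against 3.73 to 4.81, and RNASE12, a probable inactive ribonuclease, 2.80 to 5.65 against 7.27 to 8.18. In each of the 3 the AFB1_CUR libraries all stayed below the AFB1 libraries. Their log2 fold changes were -1.24, -1.03 and -0.87.

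SDSL, a serine and threonine dehydratase that feeds amino acid carbon into pyruvate, was lower in AFB1_CUR at 75.6, 50.7, 111, 87.4 and 72.3 CPM against 87.5, 200.4, 179 and 224. AFB1 replicate 2 was within the AFB1_CUR range and the other 3 AFB1 libraries were above it, and CON averaged 116 ± 27.4 CPM. On the log2 scale SDSL was at -1.12 (SE 0.29, 95% interval -1.76 to -0.48). DDIT4, an inhibitor of mTORC1 induced by stress, had 56.8, 105, 63.6, 67.2 and 56.1 CPM against 122, 118, 104 and 79.9. Of the AFB1_CUR libraries 4 were below all AFB1 libraries and replicate 2 was not, for a log2 fold change of -0.60 (SE 0.20, 95% interval -1.06 to -0.15). Because this value is close to the 1.5-fold limit, the DDIT4 call was lost in 5 of the 9 fits that left out a library, at -0.57 to -0.53.

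KLK1, tissue kallikrein of the distal nephron, which releases kinins from kininogen, was called lower with 342, 327, 293, 506 and 437 CPM against 330.0, 848, 937 and 524. AFB1 replicates 3, 4 and 5 were above all AFB1_CUR libraries, replicate 5 narrowly, and replicate 2 was within their range. The log2 fold change was -0.79 (SE 0.30, 95% interval -1.47 to -0.11), and the call was lost in 4 of the 9 fits that left out a library, at -0.75 to -0.57. Other genes of the loop and distal tubule list were not called with 9 libraries, where 0.491% of all genes were called lower. Its 15 tested genes had a median of -0.16, with 3 higher and 12 lower estimates, against 49.9% lower over all genes. In the fit without the leukocyte-rich pair KLK1 was called lower (-0.96) and 3 genes of the list were called higher, SLC12A1, the sodium-potassium-chloride carrier of the thick limb (0.89, against -0.09 with 9 libraries), CLDN16, a claudin of the same segment (0.85 against 0.71), and CASR, the calcium-sensing receptor (0.61 against 0.26). In that fit 1.03% of all genes were called higher and 0.956% lower. In the collecting duct list 17 of 19 estimates were lower with a median of -0.25, against 49.9% lower over all genes, yet 0 were called with 9 libraries. AFB1 replicate 4 was the highest of the 9 for 12 of these genes and AFB1_CUR replicate 1 the lowest for 8. Without the pair KCNE1, a potassium channel subunit (-1.02), and RHCG (-0.76) were called lower. RHCG, an ammonia channel of intercalated cells, had -0.51 (95% interval -1.06 to 0.04) with 9 libraries, and ATP6V0A4, a proton pump subunit of the same cells, -0.45 (-0.86 to -0.05). In the proximal tubule list the median was 0.08 over 18 genes.

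The other genes called in all 9 fits that left out a library and without the leukocyte-rich pair were picked out by that criterion after values were seen. ASGR2, a subunit of the asialoglycoprotein receptor, had 6.67, 4.83, 13.9, 12 and 6.33 CPM in AFB1_CUR and 23.4, 18.4, 28.2 and 11.8 in AFB1, a log2 difference of -1.22 (SE 0.36). AFB1 replicate 5 fell within the AFB1_CUR range and the other AFB1 libraries were above it. CEMIP, which binds and depolymerizes hyaluronan, had 62.3, 85.1, 96.1, 109 and 65.8 CPM against 121, 191, 101 and 322 at -1.13 (SE 0.33), with AFB1 replicate 5 highest and AFB1 replicate 4 inside the AFB1_CUR range. FOXRED1, an assembly factor of respiratory complex I, had 66.9, 44.9, 53.9, 36.4 and 54.8 CPM against 53.1, 93.3, 101 and 110.0 at -0.80 (SE 0.23). AFB1 replicate 2 alone was among the AFB1_CUR values. DEPP1, a FOXO target of the fasting response, was at -1.12 with 1.72 to 3.13 CPM against 2.63 to 7.39, MCCD1, a mitochondrial coiled-coil protein, at -0.97 with 3.46 to 8.36 against 7.99 to 17.2, and ZNF23, a zinc finger gene, at -1.01 with 14.4 to 24.6 against 22.2 to 59.0. In the higher direction PARP3, a mono-ADP-ribosyltransferase of DNA repair, had 38.6, 22.2, 3.47, 17.9 and 15.5 CPM against 7.25, 5.05, 3.77 and 8.02 at 1.70 (SE 0.55). AFB1_CUR replicate 3 was the lowest of all 9 libraries for PARP3, and CON ran from 3.00 to 68.3 CPM.

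Among called genes whose CON libraries spanned low and high levels, as those of LOC121817434, SLCO1A2 and PARP3 did, were 3 more. LOC114115573, an uncharacterized gene on chromosome 1 from 62056380 to 62056786, had 2.60, 1.86, 2.61, 2.14 and 2.84 CPM in AFB1_CUR and 1.95, 15.6, 19.7 and 20.6 in AFB1. CON libraries had 16.8, 2.15, 2.07, 17.7 and 1.75 CPM, so the same low and high levels occurred there without AFB1, and the 5 AFB1_CUR libraries were all at the low level. Its log2 fold change was -2.58 (SE 0.53, 95% interval -3.78 to -1.39). Without the leukocyte-rich pair, which removed the only low AFB1 library, it was -2.87, and this was the 1 gene past the Benjamini-Hochberg adjustment of edgeR's test in that fit (adjusted p = 0.00312). LOC101122142, described as butyrophilin-like protein 1, had 13.3, 0.954, 6.01, 5.25 and 4.72 CPM against 0.523, 0.969, 0.591 and 0 and 0.216, 9.99, 3.95, 7.28 and 0.266 in CON. LOC114108725, uncharacterized, had 200, 128, 63.4, 173 and 159.9 CPM against 22.3, 58.2, 22.8 and 81.7, with CON between 0.264 to 189.6 CPM. LOC101122142 passed the filter through the 4 AFB1_CUR libraries in which it was high and fell under it whenever 1 of them was left out, so its other calls say nothing of stability. For these 3 genes, as for LOC121817434, SLCO1A2 and PARP3, an effect of the diet and differences between animals cannot be told apart. CON also ranged widely for other called genes, such as MX2 at 2.83 to 110 CPM. With 0 genes past adjustment in the edgeR fit of 9 libraries, the limit extends to the other called genes.

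**Figure D3:**
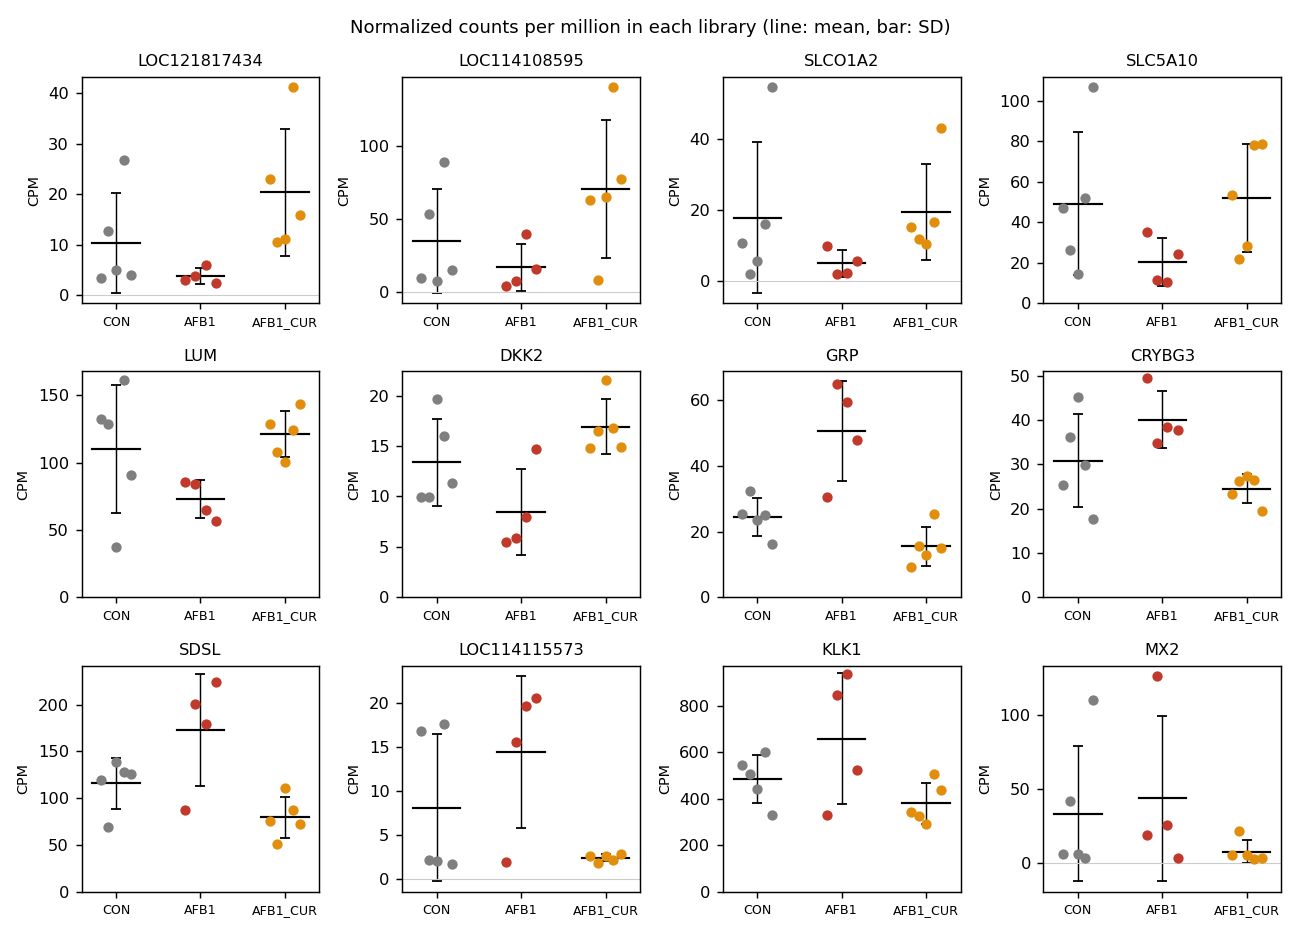
CPM of 12 genes in each of 14 libraries by group, where points are libraries, lines are means and bars are 1 SD, on linear axes. LOC121817434, SLCO1A2, LUM, DKK2, GRP and CRYBG3 have AFB1_CUR and AFB1 points that do not overlap, and the CON points of LOC114115573 fall at the same low and high levels as those of AFB1.

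Listed genes of the extracellular matrix and its turnover had mostly higher estimates in AFB1_CUR, although few were called. CEMIP, which is not on the list, was called lower at -1.13. LUM, lumican, a small proteoglycan that spaces collagen fibrils, had 129, 108, 101, 124 and 144 CPM in AFB1_CUR and 85.8, 83.8, 64.6 and 57.0 in AFB1. The groups did not overlap, CON averaged 110.1 ± 47.7 CPM, and the log2 fold change was 0.73 (SE 0.16, 95% interval 0.38 to 1.09). Of 32 tested genes of fibrosis and matrix, 26 estimates were higher and 6 lower, with a median of 0.25 and a lowest value of -0.89. Over all genes 6528 of 13027 estimates were higher. LUM was the 1 called, against 0.391% called higher over all genes, and 3 of the list did not overlap, against 0.576%. COL15A1, a basement membrane collagen, had 179.9, 210.5, 207, 232 and 230.4 CPM against 176, 157, 120.0 and 135, also without overlap, but its log2 fold change of 0.53 (SE 0.14, 95% interval 0.21 to 0.84) was under the 1.5-fold limit. BGN, biglycan, did not overlap either at 0.27 (0.03 to 0.50), and ACTA2, smooth muscle actin, had 0.54 (0.11 to 0.97).

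The fibrillar collagens had larger but less certain differences. COL1A1 had 89.6, 449, 194, 108 and 106 CPM in AFB1_CUR and 220.1, 98.8, 71.1 and 64.9 in AFB1. The leukocyte-rich library was the highest of its group in both cases, and the log2 fold change was 0.74 (SE 0.55, 95% interval -0.49 to 1.97). Those of COL3A1 and COL1A2 were 0.76 and 0.81. AFB1_CUR replicate 2 was the highest of the 9 libraries for 18 of the 32 genes, and AFB1 replicate 5 the lowest for 17. Without the leukocyte-rich pair 8 genes of the list were called higher, namely LUM, COL15A1, COL1A1, COL1A2, COL3A1, COL6A3, DCN and PDGFRA, against 1.03% of all genes in that fit, and the median was 0.23. The part of the leukocyte-rich libraries and of tissue composition in this was not tested. Among 27 genes with a collagen symbol, collected after values were seen, 22 estimates were higher, against 6528 of 13027 over all genes, and COL21A1 was called higher at 0.67, against 0.391% of all genes, but not without the leukocyte-rich pair. TGFB1, a growth factor that stimulates matrix production, was at 0.02 (-0.59 to 0.62).

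Other genes called higher had groups that did not overlap. DKK2, a secreted modulator of Wnt signalling, had 14.8, 16.5, 21.5, 16.8 and 14.9 CPM in AFB1_CUR and 5.52, 5.86, 7.94 and 14.7 in AFB1. AFB1 replicate 5 came close to the lowest AFB1_CUR library, and the log2 fold change was 0.99 (SE 0.29, 95% interval 0.33 to 1.65). CPZ, a carboxypeptidase that also binds Wnt proteins, had 4.24 to 5.08 CPM against 1.85 to 3.61 at 0.82 (SE 0.23), and CON ranged more widely, from 1.08 to 12.7 CPM. ECRG4, the precursor of augurin, had 7.39 to 11.8 against 4.90 to 6.89 CPM at 0.65 (SE 0.19). GPR153, an orphan receptor, had 10.7 to 17.6 against 7.35 to 9.58 CPM at 0.69 (0.58 and not called without the leukocyte-rich pair), and ADGRD1, an adhesion receptor, 21.1 to 27.3 against 8.02 to 19.2 CPM at 0.60. PRELID3A, a lipid transfer protein of mitochondria, had 57.7, 43.4, 42.5, 45.0 and 37.1 CPM against 24.0, 31.9, 28.2 and 29.1, at 0.67 (SE 0.14, 95% interval 0.35 to 0.99). The CON libraries of PRELID3A, at 41.3 to 48.8 CPM, lay within the AFB1_CUR range and above every AFB1 library. LOC114114261, typed in the files as a small nucleolar RNA, completed the 10 higher genes without overlap. It had only 0.275 to 0.678 CPM against 0.0794 to 0.256, the lowest level of the 10, so its value rests on few reads. MFAP5, a microfibril protein, had a log2 fold change of 3.38, but AFB1_CUR replicate 2 alone carried it, at 42.8 CPM against at most 2.01 in the other 8 libraries of the comparison, and it was not called without the leukocyte-rich pair. The calls of ADGRD1, ECRG4 and PRELID3A were each lost in 1 to 3 of the fits that left out a library, at 0.38 to 0.59, 0.55 to 0.57 and 0.57.

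Interferon-stimulated genes had lower estimates in AFB1_CUR, and 1 library of each group shaped the values. These genes are switched on when cells sense interferon. All 26 tested genes of the list had lower estimates, with a median log2 fold change of -0.67, but only MX2 was called, against 49.9% lower estimates and 0.491% called lower over all genes. MX2, an antiviral GTPase, had 4.99, 21.3, 4.95, 2.46 and 3.43 CPM in AFB1_CUR and 18.8, 126, 25.5 and 3.20 in AFB1. Library by library, AFB1 replicate 3 stood far above the rest, AFB1 replicate 5 was as low as the low AFB1_CUR libraries, and AFB1_CUR replicate 2 was as high as the middle AFB1 libraries. The log2 fold change was -2.55 (SE 0.96, 95% interval -4.69 to -0.40), and the call was lost in 5 of the 9 fits that left out a library, among them the one without AFB1 replicate 3, where it was -1.09.

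The same libraries stood out across the list. AFB1 replicate 3 was the highest of the 9 for 20 of the 26 genes, and AFB1_CUR replicate 2 was the highest AFB1_CUR library for 24. Summed over the list, AFB1_CUR libraries had 679, 1398, 516, 543 and 824 CPM and AFB1 libraries 1099, 2396, 1014 and 529.5 CPM. CON libraries spanned 489 to 2558 CPM, as wide a range as AFB1, so animals without AFB1 also differed this much. ISG15, a ubiquitin-like protein joined to other proteins after interferon, had 0.726, 14.2, 0.110, 0.573 and 1.65 CPM against 4.22, 51.2, 14.7 and 1.06. MX1 had 15.3, 88.0, 8.15, 10.5 and 18.2 against 41.9, 253, 96.1 and 16.0 CPM, and its log2 fold change was -1.86 (SE 0.88, 95% interval -3.83 to 0.11). STAT2, for which the spread was smaller, was at -0.41 (SE 0.16, 95% interval -0.77 to -0.06) and short of 1.5-fold.

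Leaving libraries out moved the interferon list in opposite ways. Without the leukocyte-rich pair, 24 of 26 estimates were lower, 13 genes were called lower, against 0.956% of all genes in that fit, and the median was -1.13. Those 13 included ISG15 (-4.83), MX2 (-3.69), MX1 (-3.21), IFIT1 (-2.11) and EIF2AK2 (-1.19). Without AFB1 replicate 3, 22 of 26 estimates were lower, 0 were called and the median was -0.18. Guanylate-binding proteins, interferon-inducible GTPases found by their descriptions after values were seen, had lower estimates for all 6 genes, and 2 were called lower, against 49.9% and 0.491% of all genes. LOC101120395, described as guanylate-binding protein 4-like, had 16.1, 7.35, 2.28, 5.35 and 3.07 CPM against 20.4, 34.0, 23.4 and 10.8 and a log2 fold change of -1.70 (SE 0.55, 95% interval -2.93 to -0.46). LOC105614852, guanylate-binding protein 2-like, had 15.5, 19.5, 13.4, 6.89 and 26.8 against 43.1, 48.3, 33.8 and 25.3 CPM and -1.2 (SE 0.34, 95% interval -1.97 to -0.43). Both were called in all 9 fits that left out 1 library, AFB1 replicate 3 included, and these neighbouring paralogs on chromosome 1 can share reads.

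No gene of NF-kB signalling, which drives cytokine production, was called with 9 libraries. Of 36 tested genes 16 estimates were higher and 20 lower, with a median of -0.04. NFKBIA, the inhibitor that NF-kB itself induces, was nearest, with 55.2, 81.8, 45.0, 59.3 and 54.2 CPM in AFB1_CUR and 95.4, 106, 96.2 and 52.6 in AFB1. Its log2 fold change of -0.57 (SE 0.22, 95% interval -1.07 to -0.07) was just under the 1.5-fold limit, and without the leukocyte-rich pair it was called lower at -0.66. RELA, the p65 subunit, had 55.3, 74.7, 59.3, 60.1 and 67.6 CPM against 76.1, 68.0, 68.8 and 52.2 and -0.06 (SE 0.13, 95% interval -0.36 to 0.23), so a 1.5-fold difference lay outside its interval. NFKB1 had -0.10 (-0.44 to 0.24) and the kinase gene IKBKB 0.08 (-0.21 to 0.37). IL18, an interleukin activated by caspase-1, had 5.86, 17.1, 9.21, 5.82 and 7.14 CPM against 11.5, 9.13, 9.74 and 5.52 at 0.01 (SE 0.36, 95% interval -0.79 to 0.80), an interval that holds 1.5-fold differences both ways. The cytokine genes TNF, IL1B, IL6 and IL10 did not pass the filter of 1 FPKM in 4 libraries, with counts of 0 to 114 for TNF, 12 to 75 for IL1B, 0 to 18 for IL6 and 11 to 345 for IL10, and were not tested.

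No gene of the redox defence lists was called with 9 libraries. NFE2L2, which encodes NRF2, had 171, 198, 222, 161 and 171 CPM in AFB1_CUR and 186, 197, 237 and 201 in AFB1, and CON averaged 163 ± 21.5 CPM. AFB1_CUR replicates 2 and 3 lay within the AFB1 range and the other 3 below it, and the log2 fold change was -0.15 (SE 0.13, 95% interval -0.45 to 0.14). KEAP1, its inhibitor, was among the most precisely measured genes, at -0.06 (-0.27 to 0.14). The quinone reductase gene NQO1, a standard NRF2 target, had 17.0, 15.6, 13.3, 15.7 and 17.1 CPM against 15.1, 13.1, 17.1 and 18.6 at -0.02 (SE 0.15, 95% interval -0.35 to 0.30). HMOX1, heme oxygenase 1, had 118, 169, 206, 143 and 142 against 123, 283, 157 and 229 CPM at -0.35 (SE 0.25, 95% interval -0.91 to 0.21).

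Over the NRF2 list 22 of 27 estimates were lower, 0 genes were called and the median was -0.15. FTL, ferritin light chain, was lowest at -0.68 (SE 0.36, 95% interval -1.49 to 0.13), with 1971, 1183, 2465, 1519 and 2723 CPM against 1414, 3076, 4517 and 3611. It was the 1 gene of the list called lower without the leukocyte-rich pair (-0.78), against 0.956% of all genes in that fit. Among 22 antioxidant enzymes 19 estimates were lower, 0 were called and the median was -0.12, where 49.9% of all genes had lower estimates. AFB1 replicate 5 was the highest of the 9 libraries for 12 NRF2 genes and 11 antioxidant genes, and AFB1_CUR replicate 2 the lowest for 7 and 10. AFB1_CUR replicate 1 was also the lowest for 7 NRF2 genes. Without the leukocyte-rich pair 23 of 27 NRF2 estimates and 18 of 22 antioxidant estimates were lower, with medians of -0.17 and -0.16. CAT, catalase, was at -0.01 (-0.84 to 0.81), SOD1 at -0.13 (-0.66 to 0.40), SOD2 at -0.08 (-0.47 to 0.30) and PRDX1, peroxiredoxin 1, at -0.24 (-0.62 to 0.14). The 23 genes of aflatoxin and curcumin metabolism had 0 calls and a median of -0.09. AKR7A2, an aldehyde reductase that acts on the aflatoxin dialdehyde, was at -0.09 (-0.50 to 0.32), EPHX1, which hydrolyses epoxides, at -0.09 (-0.59 to 0.41), and AHR, the aryl hydrocarbon receptor, at -0.01 (-0.36 to 0.33). UGT1A1, a glucuronosyltransferase, had 2.72 to 11.7 CPM against 6.19 to 17.1 at -0.71 (-1.62 to 0.19).

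The unfolded protein response, by which the endoplasmic reticulum answers misfolded protein, held no called gene either. Its 37 tested genes had 15 higher and 22 lower estimates, 0 calls and a median of -0.03. HSPA5, the chaperone BiP, had 313, 406, 395, 406 and 516 CPM in AFB1_CUR and 466, 351, 329.5 and 512 in AFB1 at -0.03 (SE 0.19, 95% interval -0.45 to 0.39). Of the stress sensors, ATF6 was at 0.00 (-0.29 to 0.29), EIF2AK3, which encodes PERK, at 0.03 (-0.54 to 0.59) and ERN1, which encodes IRE1, at -0.05 (-0.54 to 0.44). DDIT3, the death-promoting factor CHOP, had 3.63, 3.91, 4.51, 3.07 and 2.67 against 3.50, 3.97, 2.50 and 2.95 CPM at 0.14 (SE 0.22, 95% interval -0.36 to 0.64). The gene listed as ATF4 was at 0.10 (-0.15 to 0.35), but its description in the files names another protein. Outside this list, EIF2AK2, the double-stranded RNA kinase PKR and an interferon-stimulated gene, had 63.9, 117, 57.4, 40.3 and 65.9 CPM against 62.6, 219.8, 83.9 and 87.4. AFB1 replicate 3, the library highest for interferon genes, was again the highest, and the log2 fold change was -0.72 (SE 0.40, 95% interval -1.61 to 0.16). A separate locus described as eukaryotic translation initiation factor 2 subunit 1, LOC105603981, was called lower at -0.93 (SE 0.25) with under 5 CPM in all libraries. Another locus of the same description, LOC101102204, was called lower at -1.21 (SE 0.40) with 2.53 to 6.10 CPM against 3.35 to 13.3, and it was not called without the leukocyte-rich pair. EIF2S1 itself, whose reads they may share, was at 0.18 (-0.15 to 0.51).

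Apoptosis genes were not called. BAX, which opens the mitochondrial outer membrane, had 8.72, 13.1, 12.6, 9.51 and 12.1 CPM against 12.5, 13.2, 13.5 and 10.8 at -0.16 (SE 0.17, 95% interval -0.53 to 0.21), and its opponent BCL2 had 17.9, 18.2, 15.1, 21.1 and 19.6 against 31.8, 18.9, 18.1 and 11.1 at -0.12 (SE 0.26, 95% interval -0.70 to 0.46). CASP9 was at -0.18 (-0.45 to 0.08). Over 24 apoptosis genes the median was -0.04 and over 30 p53 and DNA damage genes 0.01, with 0 calls in both. Taking the 29 tested kidney genes that the study named, 7 estimates were higher and 22 lower, where 49.9% of all genes had lower estimates. Of these 29 genes 0 were called, and 25 lay within 0.2 of 0 on the log2 scale. The 95% interval stayed within 1.5-fold for 17 of them and within 2-fold for 27. EIF2AK2 alone was called without the leukocyte-rich pair, lower at -1.19, against 0.956% called lower over all genes in that fit. With 9 libraries the 29 genes ran from -0.72 for EIF2AK2 to 0.18 for EIF2S1.

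**Figure D4:**
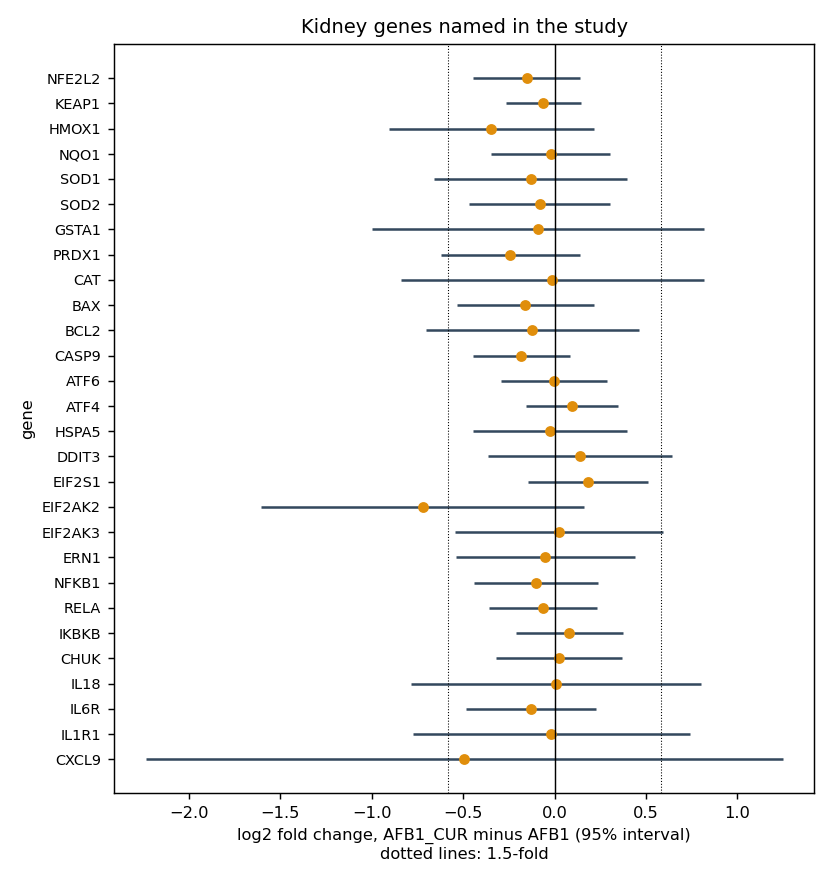
Log2 fold changes of AFB1_CUR minus AFB1 (points) with 95% intervals (lines) for 28 of the 29 tested kidney genes that the study named, with dotted lines at 1.5-fold. All 28 intervals include 0, and 16 lie wholly between the dotted lines.

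Transcripts of the mitochondrial genome were lower in AFB1_CUR by estimate for 27 of 30, a group collected after values were seen, with a median of -0.36 and 7 called lower, against 49.9% lower estimates and 0.491% called lower over all genes. Their share of all counts was 14.3%, 8.16%, 15.1%, 14.7% and 15.3% in AFB1_CUR replicates 1 to 5 and 15.3%, 14.2%, 20.7% and 15.3% in AFB1 replicates 2 to 5. The shares differed mainly through a low AFB1_CUR replicate 2 and a high AFB1 replicate 4. Without the leukocyte-rich pair the median was -0.15 and 5 were called lower, against 0.956% of all genes in that fit. Of the called 7, 6 were transfer RNA genes, whose transcripts mostly lack the poly(A) tail used to purify the RNA. KEF53_t08, KEF53_t09, KEF53_t10 and KEF53_t11 lie side by side and can share reads, so they count as hardly more than 1 observation. KEF53_t11, on chromosome MT from 5263 to 5330, had 12.8, 7.85, 15.9, 12.8 and 11.9 CPM against 24.9, 24.4, 30.5 and 15.0 at -0.95 (SE 0.24, 95% interval -1.49 to -0.42). The called protein-coding gene was KEF53_p06, NADH dehydrogenase subunit 3, at -0.78 (-1.49 to -0.08), and it was called in 6 of the 9 fits that left out a library. Nuclear genes of oxidative phosphorylation had a median of -0.14 over 22, with 19 estimates lower, against 49.9% over all genes, and 0 called. The leukocyte-rich AFB1_CUR replicate 2 was the lowest of the 9 libraries for 19 of them, and AFB1 replicate 5, also highest for 13 of 18 proximal tubule genes, was the highest for 17. Without the leukocyte-rich pair 18 of the 22 estimates were still lower and the median was -0.13.

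A few stress and clock genes were called singly. HSPA1A, the inducible heat shock protein 70, had 287, 509.7, 374, 374 and 387 CPM in AFB1_CUR and 225, 146, 293 and 323 in AFB1. CON was higher still at 456 ± 72.8 CPM, the log2 fold change was 0.65 (SE 0.25, 95% interval 0.10 to 1.2), and it was 0.48 and not called without the leukocyte-rich pair. It also lost its call without AFB1_CUR replicate 2, AFB1 replicate 2 or AFB1 replicate 3, at 0.46 to 0.61. The other 13 genes of the heat shock list were not called, and the list median was 0.02. CCN1, a matricellular immediate early gene, had 40.2, 61.2, 18.9, 18.9 and 23.7 against 24.5, 15.9, 14.9 and 16.6 CPM at 0.86 (SE 0.37), with CON at 77.4 ± 41.3 CPM. Its call was lost in 5 of the 9 fits that left out a library. PER3, a repressor of the circadian clock, had 91.4, 34.5, 53.6, 65.4 and 45.9 against 33.4, 45.2, 23.0 and 40.9 CPM at 0.71 (SE 0.29), and it lost its call in 4 of those fits. ALB was called lower at -3.75 (SE 1.5), from 51.3, 26.3, 0.513 and 0.114 CPM in AFB1 and 2.53, 1.60, 0, 0.802 and 2.32 in AFB1_CUR. AFB1 replicates 2 and 3 alone were high, and without the leukocyte-rich pair the gene was under the filter. Of the 11 tested hepatocyte genes 10 estimates were lower, against 49.9% over all genes, with a median of -0.30. Their sums were 700.2 to 1152 CPM in AFB1_CUR and 901 to 1263 in AFB1. The part of liver RNA in the ALB value was not tested.

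**Figure D5:**
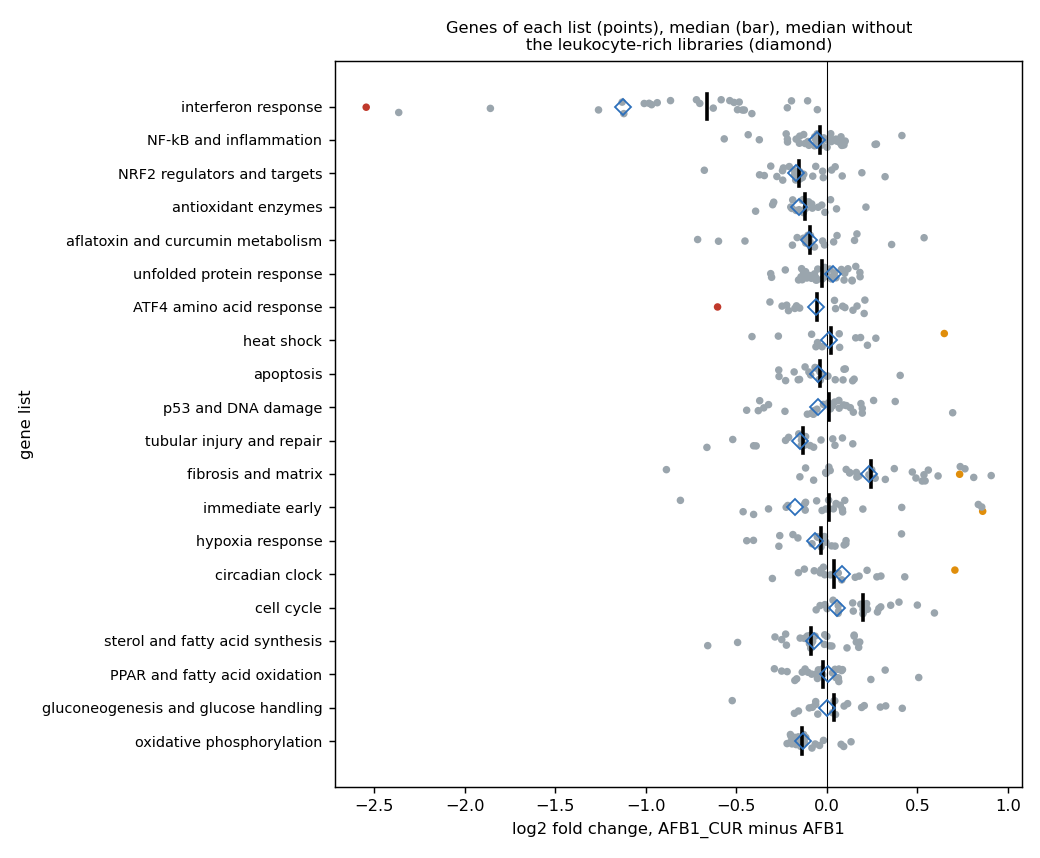
Each point is a tested gene of a list, placed by its log2 fold change of AFB1_CUR minus AFB1 (orange, called higher; red, called lower; grey, not called), with a bar at the median and a diamond at the median without the leukocyte-rich libraries. The interferon list has its bar at -0.67 and its diamond at -1.13, the fibrosis and matrix list at 0.25 and 0.23, and most other lists lie near 0.

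The remaining lists held few or no calls with 9 libraries, where 0.391% of all genes were called higher and 0.491% lower. The ATF4 amino acid response list had 16 genes, with DDIT4 called lower and a median of -0.05. Tubular injury and repair had 19 genes, 0 called and a median of -0.13, and ITGB6, an injury-induced integrin, was at -0.52 (-0.94 to -0.10). Immediate early genes numbered 25 with CCN1 called and a median of 0.01, and the 18 circadian genes had PER3 called and a median of 0.04. Medians were -0.03 over 19 hypoxia genes, -0.09 over 28 genes of sterol and fatty acid synthesis, -0.02 over 27 of PPAR and fatty acid oxidation and 0.04 over 19 of glucose handling, with 0 called in each. With the leukocyte-rich pair left out, where 1.98% of all genes were called, DDIT4, CCN1 and PER3 were still called, and 1 gene was called in each of 4 other lists. These were ITGB6, lower (-0.62), the mitophagy receptor gene BNIP3 of the hypoxia list lower (-0.61), SLC5A1, a sodium-glucose carrier, higher (1.72) and the T cell gene CD6 higher (0.66). Cell cycle genes had 20 of 23 estimates higher, against 6528 of 13027 over all genes, with 0 called. Their median was 0.20, which was 0.06 without the leukocyte-rich pair. AFB1_CUR replicate 2 was the highest of the 9 libraries for 21 of the 23 and AFB1 replicate 5 the lowest for 18. In marker lists of other cells 0 genes were called with 9 libraries apart from ALB, with medians of -0.07 for podocytes and glomerulus, 0.06 for endothelium and smooth muscle, 0.22 for B and plasma cells, 0.16 for T and NK cells, 0.07 for macrophages and neutrophils, 0.64 for 6 lymphoid chemokines, -0.22 for 5 adipocyte genes and 0.75 for 2 adrenal genes. Without the pair the median was -0.34 for 5 genes of B and plasma cells, all lower, 0.21 for T and NK cells, -0.01 for macrophages and neutrophils and 0.10 for 5 chemokines, so the B cell and macrophage medians turned sign.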

How the data were processed

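The authors trimmed adapters and low-quality reads with Cutadapt, aligned paired reads of poly(A)-selected kidney RNA with HISAT2 (version 2.2.1) and quantified them with StringTie (version 2.1.6), per the labels. The read counts per gene, not normalized, and the FPKM values were deposited by the authors for 25592 genes in 15 libraries. Not given in the sources used here are the counting program, its use of strand and the build. The deposited coordinates equal those of RefSeq's table for assembly ARS-UI_Ramb_v3.0 for 24848 genes. Samples were grouped by their titles.

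Genes with at least 1 FPKM in at least 4 of the 9 libraries were fitted on their counts with edgeR 4.0.16 (TMM scaling, quasi-likelihood F test, 2 groups), and Benjamini-Hochberg adjustment covered all genes tested. CPM values are counts scaled by TMM-adjusted library size, a fold change is AFB1_CUR minus AFB1, and 95% intervals use the fitted t distribution. P-values measure the spread between these animals. Alternatives used DESeq2 1.42.0, limma 3.58.1 on log2(FPKM + 1) or log2(FPKM + 0.1), other scalings and filters, and left-out libraries. The fit was tested on simulated counts.

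Members and gene lists were chosen with earlier results of these data known. Genes named by rule were called genes without overlap between groups (up to 12 per direction, largest changes first), the 8 called genes per direction of smallest p that were also called without the leukocyte-rich pair, called genes on a list, and the kidney genes that the study named. Other genes named, and families collected by description or symbol, were chosen after their values were seen. Single values of some genes of these lists are not reported here.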

Additional observations from a re-analysis of the deposited data

Results flagged for a closer look

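Of 118 sets of 4 or 5 libraries of a group checked for a library far from the rest, 5 stood out by Dixon's ratio, and chance alone flags about 1 in 20. LOC114115573 had 1.95 CPM in AFB1 replicate 2 against 15.6 to 20.6 CPM in the other AFB1 libraries. LOC105603981 had 2.01 CPM in AFB1 replicate 4 against 3.75 to 4.21. DDIT4 had 104.5 CPM in AFB1_CUR replicate 2 against 56.1 to 67.2 in the other AFB1_CUR libraries, and SOD1 had 196 CPM there against 314 to 356. EIF2S1 had 41.7 CPM in AFB1_CUR replicate 4 against 49.8 to 52.0. The library outside the comparison, AFB1 replicate 1, had a mean log2(FPKM + 1) of 10.66 over 19 hepatocyte genes, against 1.53 to 2.86 in the other libraries.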

How the results depend on the processing

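The 30 called genes named by rule were followed through 605 refitted values, in which the direction never changed and 85 values lost the call. These refits reuse most of the same data for genes picked as called, so kept directions were close to fixed in advance. Other called genes named in the text were not followed in this count. Of the 29 tested genes that the study named, which were not called with 9 libraries, 21 changed sign under some alternative, and EIF2AK2 was called in 5. Other uncalled genes named in the text were not followed in this count either. The counts of called genes were less stable. Leaving out each library in turn gave 47 to 126 higher, 57 to 125 lower and 0 to 1 genes past the Benjamini-Hochberg adjustment. The extremes were 126 higher and 110 lower without AFB1 replicate 2, 99 and 125 without AFB1 replicate 5, and 82 and 112 without AFB1_CUR replicate 2. Without the leukocyte-rich pair there were 130 higher and 121 lower genes and 1 past adjustment. Including AFB1 replicate 1 gave 243 lower genes. Sample quality weights in limma gave 152 and 196, no filter on low values 252 and 302, a filter at 5 FPKM 11 and 31 (fewer genes tested), and DESeq2 4 genes past adjustment. Apart from the filters, where other genes were tested, the cause was not tested. The median of all genes moved by 0.06 and 0.07 on the log2(FPKM + 1) and log2(FPKM + 0.1) scales. List medians moved beyond the spread between replicates in 24 of 692 values. Deviations from the group means correlated at 0.602 between the libraries numbered 2, the leukocyte-rich pair, and at 0.0885, -0.0929 and -0.0138 for numbers 3 to 5, so the numbers were not taken to pair the animals. With the replicate block, 118 genes were called higher and 79 lower.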
